A study of Mus musculus with 9 samples.

Results

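The nucleolar ribosome biogenesis genes described here are 34 named genes whose products transcribe, process or assemble ribosomal RNA in the nucleolus, out of 21900 genes that RefSeq annotates as protein-coding on the mouse assembly GRCm38.p6. They were chosen by the known function of their products, with earlier results of these data known. The cells were MYCN-driven T cell lymphoma cells from the thymus of C57BL/6J mice, with no non-tumour sample for comparison. ChIPmentation, in which a transposase adds sequencing adapters to chromatin still held by the antibody, was carried out for 7 targets with 1 library each, next to 2 input libraries that were not used here. The labels used here give no promoter for MYCN and no age. The input libraries are titled input-m70 and input-m71, which the labels do not explain, and no label ties an immunoprecipitation to an animal or an input.

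Ribosome production begins when RNA polymerase I transcribes ribosomal DNA in the nucleolus. Small nucleolar ribonucleoproteins, helicases and assembly factors then modify, cleave and fold the transcript into the small and the large subunit. Genes for these factors are among the best known targets of the MYC family of transcription factors, to which N-MYC belongs, and ribosome production is high in growing thymocytes and lymphomas. EZH2 and SUZ12 are subunits of Polycomb repressive complex 2, which deposits H3K27me3. H3K4me3 and H3K27ac mark active promoters, and p300 is an acetyltransferase that writes H3K27ac. The study's title speaks of EZH2 acting as an activator under MYCN, and the question at these genes is which of the 7 features were called at their starts.

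Peaks were read within 1 kb on either side of each gene's start, and again over the H3K4me3 peak that reached this window, since a promoter is often wider than the window. A start was listed for 29 members. For Npm1, Fbl, Bop1 and Tcof1 the gene end with the stronger H3K4me3 peak took its place. At Rrs1 a single H3K4me3 peak reached both ends, and the end of lower coordinate was taken. The same rule was used for all genes without a listed start among the 21900. Where neither end of such a gene had an H3K4me3 peak, both ends were read within 1 kb. Fold enrichment is the authors' linear ratio of a peak over background, a value of 1 peak in 1 library. With no replicate library, no difference below has a replicate check and none was tested. A missing peak means that none was called, and the read depth is not given in the files.

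The peak lists were first set against the labelled cell type. All 12 T-cell markers examined (among them Cd3e, Lck and Bcl11b) had H3K4me3 and H3K27ac peaks at the start, with H3K27ac fold enrichments from 9.18 to 30.2. Of 6 B-cell markers 2 had H3K4me3, of 6 myeloid markers 1, of 6 thymic epithelial markers 1, and of 4 fibroblast and 4 endothelial markers 0. H3K27ac was called at 3 of the B-cell, 2 of the myeloid, 3 of the thymic epithelial, 1 of the fibroblast and 1 of the endothelial markers, with fold enrichments from 2.22 to 5.31. The 4 erythroid markers (Hbb-bt, Klf1, Gata1 and Alas2) all had H3K4me3, with H3K27ac from 4.70 to 13.6. H3K27me3 was called at 1 of the T-cell, 2 of the B-cell, 3 of the myeloid and 1 of the thymic epithelial markers. It was called at 2 of the fibroblast, 2 of the endothelial and 0 of the erythroid markers. How far other cells contributed to the values at the nucleolar genes was not tested.

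The promoters below are shown because they are those of highest N-MYC fold enrichment among the members with and without the MYC-binding E-box. Each line gives the 250 bases before the start, 5′ to 3′ in the direction of transcription, from RefSeq (build GRCm38.p6). Capitals mark the letters CACGTG, the palindromic E-box, or CACGCG, a variant E-box, on either strand (CGCGTG is CACGCG on the other strand). Wdr43, Nop2 and Pes1 had the highest N-MYC fold enrichment among members with CACGTG in the window of 250 bases before and 50 bases from the start on, and Ncl and Nolc1 among those without it.

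Wdr43 (chr17:71615965-71616214, plus strand): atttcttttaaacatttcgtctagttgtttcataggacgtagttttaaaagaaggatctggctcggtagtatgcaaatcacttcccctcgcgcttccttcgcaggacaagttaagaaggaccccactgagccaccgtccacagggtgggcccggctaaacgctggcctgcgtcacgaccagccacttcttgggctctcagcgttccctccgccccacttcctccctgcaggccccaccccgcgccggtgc
Nop2 (chr6:125131633-125131882, plus strand): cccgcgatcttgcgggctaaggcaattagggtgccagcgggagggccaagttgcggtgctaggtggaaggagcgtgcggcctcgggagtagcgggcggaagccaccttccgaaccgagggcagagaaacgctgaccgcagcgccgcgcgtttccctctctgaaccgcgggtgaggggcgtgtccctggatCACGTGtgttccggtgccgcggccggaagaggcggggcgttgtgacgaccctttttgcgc
Pes1 (chr11:3963725-3963974, plus strand): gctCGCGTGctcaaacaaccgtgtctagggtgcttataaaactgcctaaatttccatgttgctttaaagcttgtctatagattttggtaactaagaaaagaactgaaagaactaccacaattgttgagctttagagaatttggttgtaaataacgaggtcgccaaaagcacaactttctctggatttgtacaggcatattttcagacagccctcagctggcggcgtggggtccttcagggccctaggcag
Ncl (chr1:86359456-86359705, minus strand): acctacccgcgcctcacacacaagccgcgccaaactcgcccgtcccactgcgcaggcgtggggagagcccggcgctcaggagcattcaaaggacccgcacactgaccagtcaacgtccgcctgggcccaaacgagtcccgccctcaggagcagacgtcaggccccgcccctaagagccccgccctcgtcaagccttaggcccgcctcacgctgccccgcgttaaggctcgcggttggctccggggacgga
Nolc1 (chr19:46075597-46075846, plus strand): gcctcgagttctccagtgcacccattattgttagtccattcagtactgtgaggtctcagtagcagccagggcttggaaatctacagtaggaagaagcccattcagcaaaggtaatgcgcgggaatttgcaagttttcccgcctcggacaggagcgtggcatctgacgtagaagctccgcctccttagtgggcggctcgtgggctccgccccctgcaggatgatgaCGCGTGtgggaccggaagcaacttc

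In 4 of the 6 members with CACGTG the motif lay at or after the start, so it falls outside those stretches, and 2 of 29 members held it in the 250 bases before the start (background 6.65%). The 30 bases around each of the 6 sites follow, with CACGTG in capitals, from the highest to the lowest N-MYC fold enrichment.

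Wdr43 (chr17:71616220-71616249, plus strand): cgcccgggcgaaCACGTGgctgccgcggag
Nop2 (chr6:125131811-125131840, plus strand): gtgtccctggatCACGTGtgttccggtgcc
Pes1 (chr11:3963965-3963994, plus strand): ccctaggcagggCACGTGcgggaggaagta
Mybbp1a (chr11:72441347-72441376, plus strand): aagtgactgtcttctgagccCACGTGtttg
Imp4 (chr1:34439696-34439725, plus strand): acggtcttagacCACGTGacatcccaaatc
Utp20 (chr10:88826765-88826794, minus strand): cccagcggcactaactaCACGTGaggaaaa

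The starts of these genes nearly all carried the active features, N-MYC and EZH2, and none carried SUZ12 or H3K27me3. Within 1 kb of the start, H3K4me3 was called at 34 of 34 members, against 50.1% of all protein-coding genes, H3K27ac at 34 (background 50.6%) and p300 at 34 (background 38.4%). N-MYC was called at 32 of 34 (exact 95% binomial interval 80.3 to 99.3%, background 32.0%) and EZH2 at 30 of 34 (72.5 to 96.7%, background 44.6%). SUZ12 was called at 0 members (background 13.2%) and H3K27me3 at 0 (background 25.0%). These intervals cover counting error only, and the 34 genes were not drawn at random.

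The window missed some calls on the same promoter. Over the whole H3K4me3 peak, N-MYC was called at 33 of 34 members, against 65.2% of the 10972 genes with such a peak. EZH2 was called at 32 (background 74.3%), p300 at 34 (77.1%) and H3K27ac at 34 (93.0%), while SUZ12 was called at 0 (9.19%) and H3K27me3 at 0 (13.2%). EZH2, N-MYC and p300 together, with neither SUZ12 nor H3K27me3, were found at 31 of 34 members (exact interval 76.3 to 98.1%, background 49.7%). The exceptions were Wdr74, which had no N-MYC peak, and Dkc1 and Tcof1, which had no EZH2 peak.

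Part of this background is genes with weak promoters, so the same shares were read in the 8161 genes whose H3K4me3 fold enrichment lay within the members' range of 17.5 to 45.9. There N-MYC was called at 75.9%, EZH2 at 85.2%, p300 at 90.8% and H3K27ac at 99.8% of genes. SUZ12 was called at 2.71% of them and H3K27me3 at 4.50%, so that 0 of 34 members stands near the background of strong promoters. The combination of EZH2, N-MYC and p300 without SUZ12 or H3K27me3 had a background of 63.6% in that range. The members' share was 94.1% for EZH2 (exact interval 80.3 to 99.3%) and 97.1% for N-MYC (84.7 to 99.9%). The EZH2 interval holds the 85.2% of genes in that range, and the N-MYC interval lies above their 75.9%. The range is not a match for promoter strength. Its median H3K4me3 fold enrichment was 30.0, against 34.1 over the members, of which 26 of 34 lay above 30.0. Shares at equal H3K4me3 were not tested.

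The median fold enrichment of the members lay above that of all genes with such a peak in 5 lists, but for EZH2 and H3K27ac the difference was within the interval of the median. Median N-MYC fold enrichment was 7.97 over the 33 members with a peak, from 3.74 to 17.1, with a 95% order-statistic interval of the median of 6.54 to 10.6, against 6.03 over all 7157 genes with such a peak and 6.14 in the H3K4me3 range. Of those 33 members 27 lay above the median of all genes, and 16 lay above the upper quartile of 8.03, as did 24.7% of genes. Median p300 fold enrichment was 6.92 (interval 5.64 to 7.75) against 5.40, with 26 of 34 members above it. H3K4me3 had a median of 34.1 (30.9 to 36.3) against 26.4, with 31 of 34 members above. The EZH2 median of 6.42 (5.37 to 7.15) stood against 5.80, with 18 of 32 members above, and that of H3K27ac of 15.7 (12.6 to 19.1) against 12.9, with 22 of 34 above, so that both intervals hold the value of all genes. The intervals treat the genes as independent draws and cover no spread between libraries. Fold enrichments of different lists are not on a common scale, so each is set only against its own list.

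**Figure D1:**
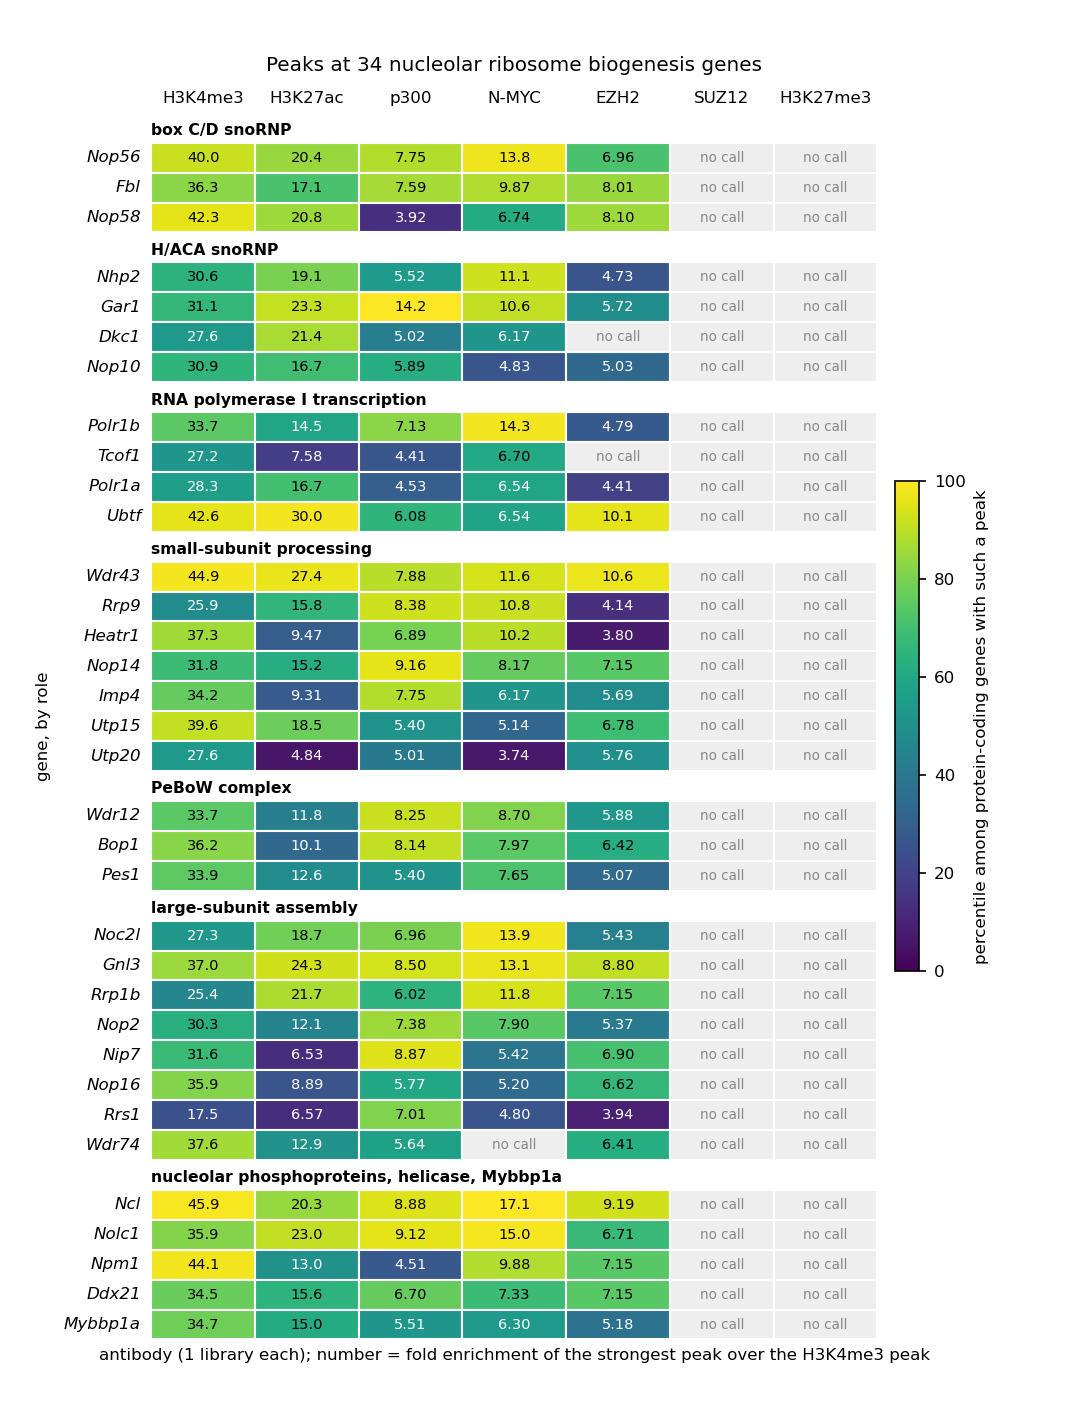
Fold enrichment of the strongest peak over the H3K4me3 peak for each of the 34 genes (rows, by role) and each of the 7 antibodies (columns, 1 library each); colour gives the percentile among all protein-coding genes with such a peak, and grey cells had no call. The SUZ12 and H3K27me3 columns hold no call, the EZH2 column lacks Dkc1 and Tcof1, and the N-MYC column lacks Wdr74.

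Box C/D small nucleolar ribonucleoproteins guide 2′-O-methylation of ribosomal RNA. Their core holds Fbl (fibrillarin), the methyltransferase, and the paired scaffold proteins Nop56 and Nop58. Nop56 had fold enrichments of 40.0 for H3K4me3, 20.4 for H3K27ac, 7.75 for p300, 13.8 for N-MYC and 6.96 for EZH2. Its N-MYC value lay at percentile 97.6 of genes with such a peak. Nop58 had 42.3 for H3K4me3 and 8.10 for EZH2, but 3.92 for p300 and 6.74 for N-MYC. It thus stood at percentile 14.0 for p300, the lowest of the 34 genes, and at 85.2 for EZH2. Fbl had 36.3 for H3K4me3, 9.87 for N-MYC and 8.01 for EZH2, and its other gene end carried a weaker H3K4me3 peak of 24.6 with EZH2 (3.97) and no N-MYC call.

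H/ACA ribonucleoproteins guide pseudouridylation. Dkc1 (dyskerin) is the pseudouridine synthase, and Nhp2, Nop10 and Gar1 are its partners. Nhp2 had the highest N-MYC value of this group, 11.1 (percentile 92.4), with 30.6 for H3K4me3, 19.1 for H3K27ac, 5.52 for p300 and 4.73 for EZH2. Gar1 had 10.6 for N-MYC and a p300 value of 14.2, at percentile 99.9 and the highest of the 34 genes. Nop10 had 4.83 for N-MYC (percentile 26.9) and 5.03 for EZH2.

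Dkc1, on the X chromosome, was 1 of the 2 members without EZH2. Its H3K4me3 peak, at chrX:75095178-75098427, had a fold enrichment of 27.6, with 21.4 for H3K27ac, 5.02 for p300 and 6.17 for N-MYC. The nearest EZH2 peak lay 578229 bp from its start. A range of H3K4me3 fold enrichment from 25 to 30 was set, after the values were seen, around those of the 2 members without EZH2. EZH2 was called at 85.0% of the 1857 genes in that range and at 5 of its 7 members. Both members without EZH2 lie in the range by its construction, so the members' count cannot be set against the 85.0%.

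RNA polymerase I transcription was represented by the catalytic subunits Polr1a and Polr1b, the ribosomal DNA-binding factor Ubtf and the cofactor Tcof1 (treacle). Polr1b had an N-MYC value of 14.3 (percentile 98.2), with 33.7 for H3K4me3, 14.5 for H3K27ac, 7.13 for p300 and 4.79 for EZH2. Polr1a had 6.54 for N-MYC and 4.41 for EZH2. Both subunit genes lay low in the EZH2 list, at percentiles 27.8 and 19.4.

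Ubtf differed from them in shape. Its H3K4me3 peak was 6166 bp wide, the widest of the 34, began 46 bp after the most upstream of its 6 listed starts and reached 6211 bp past that start. Fold enrichments there were 42.6 for H3K4me3, 30.0 for H3K27ac (percentile 98.2), 6.08 for p300, 6.54 for N-MYC and 10.1 for EZH2 (percentile 96.0). The N-MYC summit lay 4208 bp and the EZH2 summit 3418 bp after that start, which is why the 1 kb window held neither. With every listed start read, 33 members had N-MYC and 31 had EZH2 within 1 kb.

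Tcof1 was the other member without EZH2, and its nearest EZH2 peak lay 62246 bp away. It had 27.2 for H3K4me3, 7.58 for H3K27ac (percentile 18.2), 4.41 for p300 and 6.70 for N-MYC.

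Small-subunit processing, the cleavage and assembly of the 18S precursor, was represented by 7 genes. Wdr43, a subunit that also takes part in transcription of the ribosomal precursor, led this group for N-MYC with 11.6 (percentile 93.5). It had 44.9 for H3K4me3, 27.4 for H3K27ac and 7.88 for p300, and its EZH2 value of 10.6 (percentile 97.1) was the highest of all members. Rrp9, a protein bound to the U3 small nucleolar RNA, had 10.8 for N-MYC and 4.14 for EZH2. Heatr1, a large scaffold protein of the small-subunit processome, had 10.2 for N-MYC and the lowest EZH2 value of the 32 genes with a call, 3.80 (percentile 7.37), although its H3K4me3 value of 37.3 stood at percentile 85.6. Utp20, another large scaffold protein, was low in N-MYC (3.74, percentile 6.27) and in H3K27ac (4.84, percentile 5.60), the lowest value of the members in both lists, while its EZH2 value of 5.76 stood at percentile 49.6. Nop14, Imp4 and Utp15, further processome proteins, had N-MYC values of 8.17, 6.17 and 5.14 and EZH2 values of 7.15, 5.69 and 6.78. The order of this group by N-MYC was thus not its order by EZH2.

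The PeBoW complex of Pes1, Bop1 and Wdr12 matures the large subunit. Its genes differed little in N-MYC and more in p300. N-MYC values were 8.70 at Wdr12, 7.97 at Bop1 and 7.65 at Pes1. H3K4me3 ran from 33.7 to 36.2, H3K27ac from 10.1 to 12.6, p300 from 5.40 to 8.25 and EZH2 from 5.07 to 6.42. At Wdr12, the member of highest N-MYC in the complex, the values were 33.7 for H3K4me3, 11.8 for H3K27ac, 8.25 for p300 and 5.88 for EZH2.

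Large-subunit assembly was represented by 8 genes, of which Noc2l, part of a pre-60S export complex, had the highest N-MYC value, 13.9 (percentile 97.7). Noc2l had 27.3 for H3K4me3, 18.7 for H3K27ac, 6.96 for p300 and 5.43 for EZH2. Gnl3 (nucleostemin), a GTP-binding protein, was high in 5 lists, with 37.0 for H3K4me3, 24.3 for H3K27ac, 8.50 for p300, 13.1 for N-MYC and 8.80 for EZH2. Rrp1b had 11.8 for N-MYC and 7.15 for EZH2, and Nop2, an RNA methyltransferase, had 7.90 and 5.37. Nip7, Nop16 and Rrs1 were lower for N-MYC, with 5.42, 5.20 and 4.80. Nip7 combined a high p300 value of 8.87 (percentile 94.8) with a low H3K27ac value of 6.53 (percentile 12.9).

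Rrs1, a factor that brings the 5S ribonucleoprotein to the pre-60S particle, had the weakest H3K4me3 peak of the 34, 17.5 (percentile 24.7), and still carried p300 (7.01), N-MYC and EZH2 (3.94). Its single H3K4me3 peak reached both ends of the gene, so the calls over that peak are the same from either end. Within 1 kb, N-MYC was called at the end taken as the start and not at the other, where EZH2 was 3.80.

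Wdr74, a factor of pre-60S maturation, was the 1 member without N-MYC. Its H3K4me3 peak, at chr19:8735186-8737543, was not weak, at 37.6 (percentile 86.1), and it had 12.9 for H3K27ac, 5.64 for p300 and 6.41 for EZH2. The nearest N-MYC peak lay 12308 bp from its start.

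The remaining members are abundant nucleolar proteins. Ncl (nucleolin), an RNA-binding phosphoprotein, had the highest H3K4me3 and N-MYC values of the 34 genes, 45.9 (percentile 99.1) and 17.1 (percentile 99.6), with 20.3 for H3K27ac, 8.88 for p300 and 9.19 for EZH2. Its H3K4me3 peak lay at chr1:86356850-86361325. Nolc1, a chaperone of small nucleolar ribonucleoproteins, followed for N-MYC with 15.0 and had 9.12 for p300. Npm1 (nucleophosmin) had 44.1 for H3K4me3 and 9.88 for N-MYC, with a low p300 value of 4.51 (percentile 27.7). The helicase gene Ddx21 had 7.33 for N-MYC and 7.15 for EZH2, and Mybbp1a had 6.30 and 5.18.

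**Figure D2:**
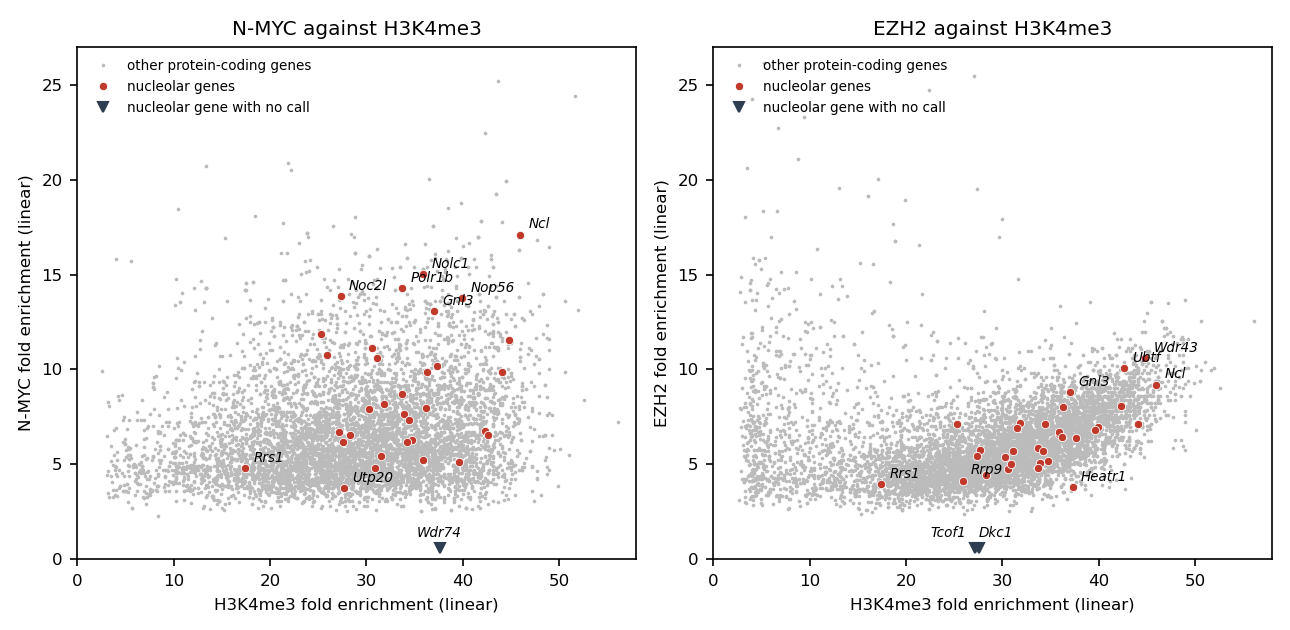
Fold enrichment of N-MYC (left) and EZH2 (right) against that of the H3K4me3 peak at the same start, both on linear axes; grey points are protein-coding genes, red points the nucleolar genes, and triangles near the axis members with no call. On the left the red points spread from 3.74 at Utp20 to 17.1 at Ncl, and on the right they rise with H3K4me3 along the grey cloud, from 3.94 at Rrs1 to 9.19 at Ncl, with Heatr1 (3.80) below it; the triangles stand for genes without a value.

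Among the members, EZH2 went with H3K4me3 and N-MYC less so. Spearman's rho of EZH2 with H3K4me3 fold enrichment was 0.63 over 32 members, and 0.59 over the 6954 genes of the H3K4me3 range with both peaks. N-MYC had rho values of 0.22 with H3K4me3 (33 members, 0.14 over genes of that range), 0.51 with H3K27ac (0.33) and 0.48 with p300 (0.40). EZH2 and N-MYC had 0.19 over 31 members and 0.18 over genes. These values describe 1 library per list across genes, which share that library, its unstated depth and the base composition of promoters, and they carry no p-value.

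The H3K4me3 peaks of the members were wide. Their median width was 3270 bp, from 1930 bp at Rrp9 to 6166 bp at Ubtf, against 2502 bp over all genes with such a peak and 2789 bp in the members' H3K4me3 range. Of the 34 members 30 lay above the median of all genes. At the 29 members with a listed start, the peak reached a median of 805 bp before and 2065 bp after the start, against 748 bp and 1594 bp over all genes and 873 bp and 1772 bp in the members' H3K4me3 range. The greater width thus lay downstream of the start. Cytosolic ribosomal protein genes had a similar median width, 3221 bp over 81 genes.

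Summits were placed in the direction of transcription, with negative values before the start. The N-MYC summit had a median position of 128 bp at 28 members, with quartiles of -25.8 and 180.8 bp, against 8 bp over 5878 genes. The interval of that median, -9 to 172 bp, holds the value of all genes. The summit lay after the start at 19 of the 28 members (exact interval 47.6 to 84.1%), against 51.4% of genes, and at least 50 bp after it at 18, against 41.8%. At Ncl it lay at 743 bp, at Wdr12 at 716 bp and at Gar1 at 336 bp, while at Polr1a it lay at -476 bp, at Imp4 at -418 bp and at Utp15 at -301 bp. Each of these last 3 genes shares its H3K4me3 peak with a gene that starts nearby on the other strand. The same holds for Wdr12, Nop14, Nop16 and Noc2l, with N-MYC summits after the start. It also holds for Rrp9, Gnl3 and Nip7, with summits shortly before it. The p300 summit had a median of 82 bp, against -8 bp over all genes. EZH2, H3K4me3 and H3K27ac summits lay farther in, at medians of 305.5, 335 and 198 bp, against 273, 288 and 253.5 bp over all genes.

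Not every pair of lists was measured for the distance between summits of the same promoter. Of the measured pairs, EZH2 and H3K4me3 stood closest at the members, with a median distance of 94 bp over 32 members. H3K27ac and H3K4me3 summits were 134.5 bp apart over 34, and N-MYC and p300 summits 159 bp apart over 33. EZH2 and N-MYC summits were 273 bp apart in the median of 31 members, from 5 to 850 bp. Over all genes the median was 112 bp for EZH2 and H3K4me3, 164 bp for N-MYC and p300 and 324 bp for EZH2 and N-MYC. H3K27ac and H3K4me3 stood closer there, at 104 bp.

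**Figure D3:**
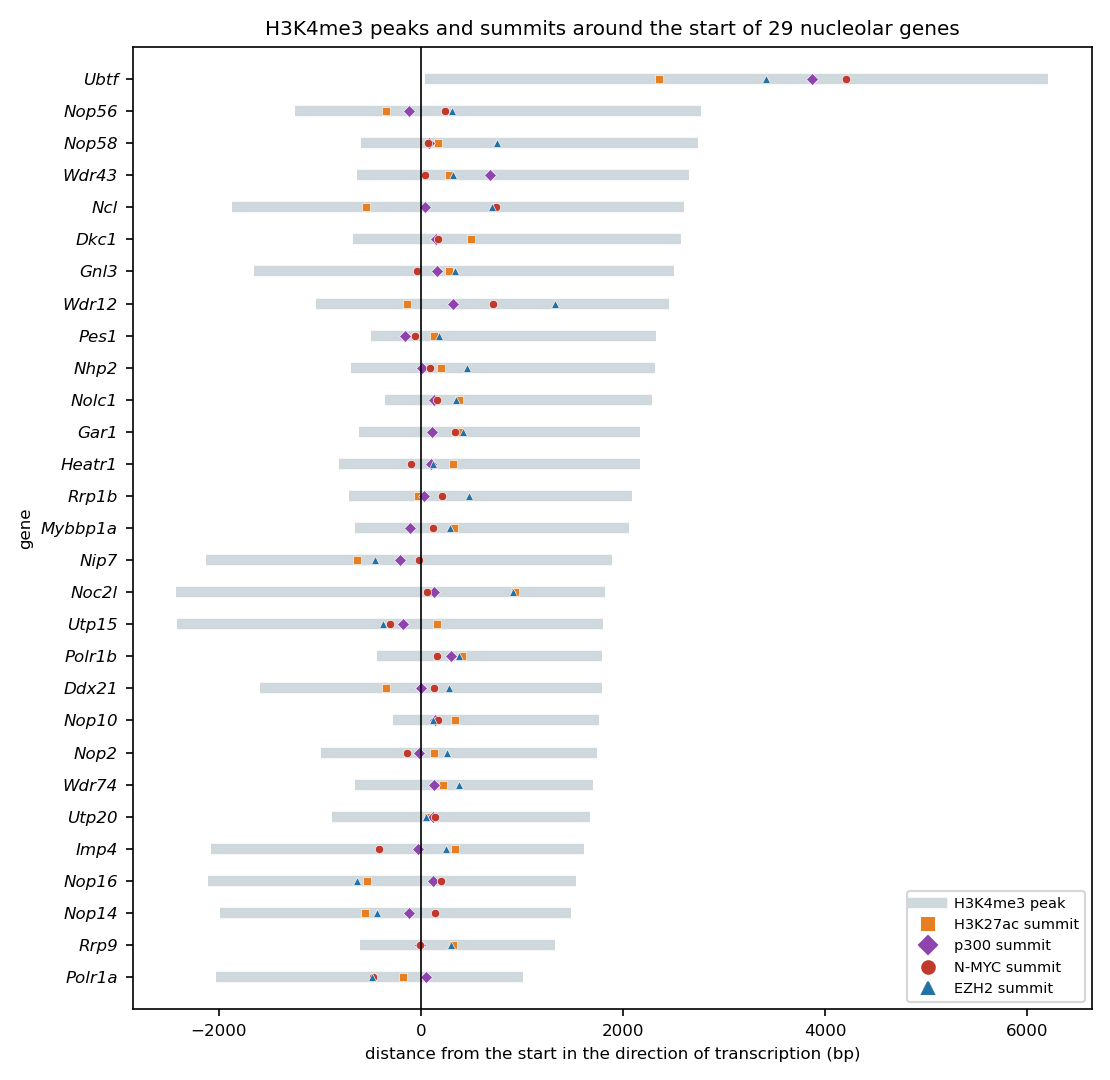
Extent of the H3K4me3 peak (grey bars) and summit of the strongest H3K27ac, p300, N-MYC and EZH2 peak on it for the 29 members with a listed start, in bp from the start in the direction of transcription. Most summits lie shortly after the start, at medians of 128 bp for N-MYC and 305.5 bp for EZH2, and Ubtf stands apart with an N-MYC summit at 4208 bp.

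The median distance of the members to the nearest SUZ12 or H3K27me3 peak lay between the quartiles of other genes with an H3K4me3 peak. The nearest SUZ12 peak lay a median of 96.8 kb from the start, against 117.2 kb over genes with an H3K4me3 peak and 133.9 kb in the members' H3K4me3 range, and the closest was 6511 bp away, at Npm1. For H3K27me3 the median was 38.4 kb, against 33.0 and 40.1 kb, and the closest peaks lay 2382 bp from Npm1, 2473 bp from Pes1 and 4667 bp from Gar1.

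CACGTG was found in the promoter window of 6 of the 29 members with a sequence (20.7%, exact interval 7.99 to 39.7%), against 7.91% of 17492 promoters of the same length and 10.8% of those with an H3K4me3 peak. The sites were the ones printed above, at positions 18 in Wdr43, -60 in Nop2, 3 in Pes1, 41 in Mybbp1a, -121 in Imp4 and 38 in Utp20, where 1 is the first transcribed base and the motif's first letter is counted. CACGCG on either strand was found in 11 members (exact interval 20.7 to 57.7%, background 12.2%, and 19.6% with an H3K4me3 peak), as in the stretches of Nolc1 and Pes1 above. No CACGTG match of a member overlapped a CACGCG match, and 15 of 29 members had at least 1 of the 2 (background 18.7%). That background is of all promoters, and the share among those with an H3K4me3 peak was not computed.

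The members with the strongest N-MYC peaks were not those with CACGTG. The 6 members with it had a median N-MYC fold enrichment of 6.98, from 3.74 to 11.6, and the 22 without it had 9.44, from 4.83 to 17.1. The ranges overlap. Over all genes with an H3K4me3 peak the order was the other way, with a median of 6.54 over 753 promoters with CACGTG and 5.98 over 5125 without. The N-MYC summit lay 17.5 bp from the centre of the motif at Wdr43, 61.5 bp at Pes1, 80.5 bp at Mybbp1a, 83.5 bp at Nop2, 96.5 bp at Utp20 and 299.5 bp at Imp4. The window held the summit itself at 7 of 28 members, so the sequence under most N-MYC summits, that of Ncl included, was not analysed here. A match describes letters and not binding, and no match says nothing of sites outside the window.

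**Figure D4:**
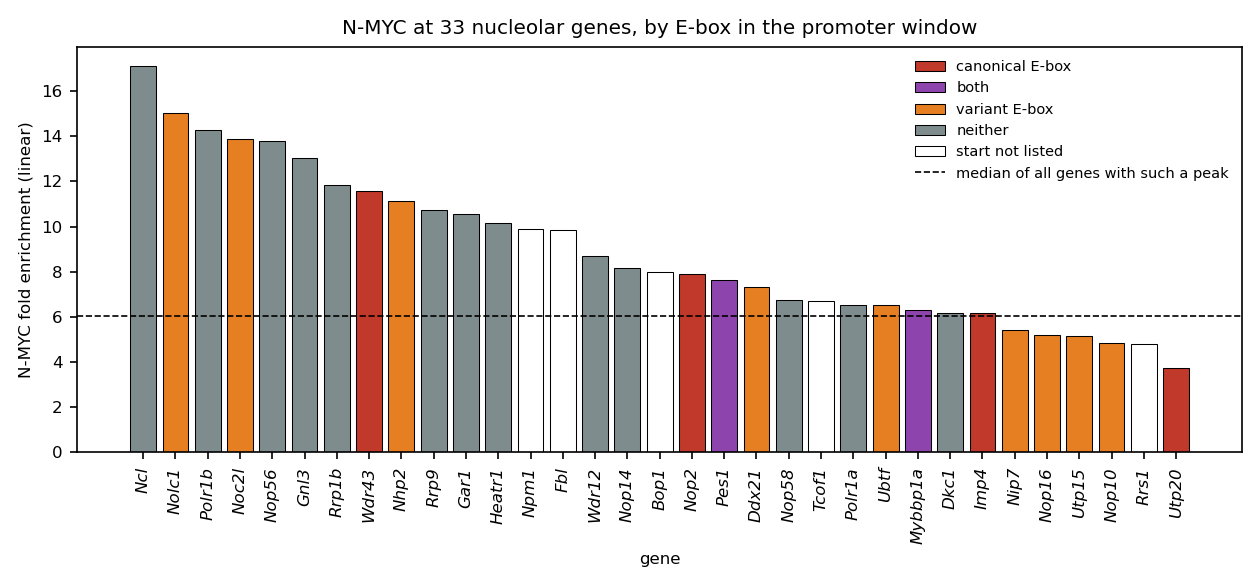
N-MYC fold enrichment (linear, from 0) of the 33 members with a peak, from highest to lowest, coloured by whether the promoter window holds the canonical E-box, the variant, both or neither; white bars are genes without a listed start, and the dashed line is the median of all genes with such a peak, 6.03. The 6 members with the canonical E-box run from 11.6 at Wdr43 to 3.74 at Utp20, and 7 members without it stand above all of them.

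Several members share features that the choice of genes did not use. Genes for small nucleolar RNAs, most of which are cut from introns of host genes, lay within 6 members (background 1.70%): Ncl, Nop56, Nop58, Dkc1, Wdr43 and Gnl3 held 18 in all, up to 5 in Nop56. These 6 had medians of 41.2 for H3K4me3, 21.1 for H3K27ac and 12.3 for N-MYC, and the other 28 had 33.7, 14.7 and 7.90 (27 genes for N-MYC). Their ranges overlapped in each of these lists, and Dkc1, at 27.6 for H3K4me3 and 6.17 for N-MYC, was low among the 6. For p300 the 6 ran from 3.92 at Nop58, the lowest of all members, to 8.88 at Ncl. EZH2 was not called at Dkc1 and ran from 6.96 at Nop56 to 10.6 at Wdr43 in the rest. This split was not planned in advance.

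Another protein-coding gene had a listed start on the same H3K4me3 peak at 10 of 34 members (29.4%, exact interval 15.1 to 47.5%). That interval holds the background of 17.7%. These pairs were Nop14 with Grk4, Nop16 with Higd2a, Wdr12 with Carf, Utp15 with Ankra2, Rrp9 with Parp3, Polr1a with Ptcd3, Gnl3 with Pbrm1, Nip7 with Cog8, Imp4 with Ccdc115 and Noc2l with Klhl17. The starts were 7 bp apart at Gnl3 and 1153 bp apart at Noc2l, and peaks there cannot be assigned to 1 gene of a pair. At the 21 members with no other listed start, of any kind, N-MYC was called over the H3K4me3 peak at 20 and EZH2 at 19, with medians of 7.78 and 6.41. Npm1, Bop1, Rrs1 and Tcof1, themselves without a listed start, are among the 21. A neighbour among the 4408 protein-coding genes without a listed start would not be seen, so some of the 21 may share their promoter.

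Other genes of the same pathway were called in most cases too, at somewhat lower shares that were not tested against the members. Of 101 further ribosome biogenesis genes, 99 were matched by symbol. Over their H3K4me3 peaks, which all 99 had, p300 was called at 96, EZH2 at 87, N-MYC at 86, SUZ12 at 0 and H3K27me3 at 1, and 79 had EZH2, N-MYC and p300 without SUZ12 or H3K27me3. Their median fold enrichments were 31.7 for H3K4me3, 6.92 for N-MYC and 5.64 for EZH2. The highest N-MYC values were 17.0 at Utp4, 14.6 at Gtpbp4 and 12.3 at Utp18, which encode factors of small-subunit (Utp4, Utp18) and large-subunit (Gtpbp4) assembly. H3K27me3 was called over the H3K4me3 peak of Exosc9 (fold enrichment 6.63), a subunit of the RNA exosome, and within 1 kb of the start of Gnl2 (11.1), a pre-60S GTPase.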

How the data were processed

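ChIPmentation peak lists of 7 immunoprecipitations, 1 library each, were analysed. Per the submitters' processing notes, the tools were FastQC, Bowtie2, SAMtools, MACS2 and deepTools and the builds mm10 and GRCm38. Their roles, versions and settings, and the control library, are not given in the sources used here. Fold enrichments were deposited by the authors as linear ratios. The p-value and q-value were deposited as −log10 values, the smallest −log10 q running from 2.00 to 2.08. The summit offset in bp was used as deposited.

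Starts, strands and promoter sequences came from RefSeq tables of GRCm38.p6, which list a start for 17492 genes; of several starts, the one farthest upstream was used. A peak counted with an overlap of at least 1 bp, and the strongest peak per list was kept. Nearest distances run from the start to the peak's edge. A percentile is the share of genes at or below a value. Exons and introns were not analysed here. All members are described; those given in full were the highest for N-MYC in each role and those lacking N-MYC or EZH2, with Ubtf and Gnl3 added after their values were seen. Promoters printed were the 3 of highest N-MYC with CACGTG and the 2 without. The members and lists were chosen with earlier results of these data known. The reading step, tested on simulated data, recovered all 3021 planted N-MYC peaks at 10215 starts. The peaks were planted close to listed starts that lie far from one another. Unlisted starts, shared promoters and distant summits such as that of Ubtf were not simulated. Python 3.11.15, pandas 2.3.3, NumPy 2.4.6 and SciPy 1.17.1 were used.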

Additional observations from a re-analysis of the deposited data

How the results depend on the processing

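The 20 results were read again under other settings, which gave 133 values. Counts were compared as shares of the members read, because some settings left out members. A share had to lie within a factor of 1.5 of the reported share, and a median inside the binomial interval of the reported median. This held for 131 of the values. Both exceptions concern CACGTG: 2 of 29 members held it in the 250 bases before the start alone (background 6.65%), and 15 held CACGTG or CACGCG, against 6 as reported; the narrower window and the added motif account for these by construction. With windows of 500 bp or 2 kb, EZH2 was called near the start at 29 or 32 members and N-MYC at 31 or 33. With lists of equal length (9798 peaks) EZH2 was called within 1 kb at 23 members (33.8% of all genes) and over the H3K4me3 peak at 26 (59.1% of genes with such a peak). The combination of EZH2, N-MYC and p300 was found at 25 (42.3%), and N-MYC over that peak at 33 (72.2%). The N-MYC list is itself the shortest, so this setting removed none of its peaks. The counts of 0 for SUZ12 and H3K27me3 could hardly change with a stricter q-value, shorter lists, a narrower window or fewer members. Such values are among the 131. Reading every listed start, leaving out members without a listed start and leaving out members with another listed start on the peak were chosen after seeing the data. No paired analysis was possible because each antibody had 1 library. The unknown depth limits what a missing call shows.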

Other observations

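The genes for the ribosomal proteins themselves give a scale for the values above, side by side and with no test. Of 85 genes named as cytosolic ribosomal proteins, 81 had an H3K4me3 peak at the start, and of these N-MYC was called at 79 and EZH2 at 78, with median fold enrichments of 8.29 and 7.33. Of 78 genes for mitochondrial ribosomal proteins, all had an H3K4me3 peak, with N-MYC at 59 and EZH2 at 66 and medians of 6.70 and 5.02. The nucleolar genes stood at 33 and 32 of 34, with medians of 7.97 and 6.42. Median p300 fold enrichment was 6.92 over the nucleolar genes, 5.90 over the cytosolic and 4.95 over the mitochondrial ribosomal protein genes, and median H3K27ac was 15.7, 22.6 and 12.5. Median H3K4me3 width was 3270 bp over the nucleolar, 3221 bp over the cytosolic and 2480.5 bp over the mitochondrial ribosomal protein genes. Where a start was listed, the peak reached a median of 2065, 2360 and 1470 bp after it. The median N-MYC summit lay at 128, 126 and -9 bp. SUZ12 was called over the H3K4me3 peak at 0 genes of all these families, and H3K27me3 at 1 mitochondrial ribosomal protein gene.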
